A study of Mus musculus with 6 samples.

Results

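The 7 genes described here encode RNA-binding proteins of 3 families that shorten the life of mRNAs: the Regnases Zc3h12a and Zc3h12d, the Roquins Rc3h1 and Rc3h2, and the ZFP36 proteins Zfp36, Zfp36l1 and Zfp36l2. They were chosen by symbol, all 7 were found among the 15319 gene symbols of the count table, and all 7 were tested. The libraries came from tumor-infiltrating regulatory T cells (Tregs, CD4 T cells that carry Foxp3 and restrain other immune cells). LLC cells, a line of mouse lung carcinoma, had been injected into the tail vein of mice aged 8 to 10 weeks at injection. Tregs were sorted from the lungs 21 days later. The WT group carried Foxp3Yfp-Cre, and the cKO group carried Foxp3Yfp-Cre and Xrcc6flox/flox, which removes the gene of the DNA end-binding protein Ku70. Cre and YFP were driven from the Foxp3 locus in both groups, so the WT mice carried that allele too, and the deletion is limited to cells in which that locus has been active. Each group had 3 libraries. The labels do not say how many mice gave each library, so the p-values measure the spread between these libraries, part of which may be technical.

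The 3 families find their mRNAs by short signals in the 3′ UTR, the part of an mRNA after its stop codon. Regnase-1, the protein of Zc3h12a, is an endonuclease that cuts stem-loops with a pyrimidine-purine-pyrimidine loop on mRNAs that are being translated, and it is itself cut by the paracaspase MALT1 after T cell receptor stimulation. Roquin-1 and Roquin-2, the proteins of Rc3h1 and Rc3h2, bind stem-loops of the same kind, known as constitutive decay elements, and recruit the CCR4-NOT deadenylase. Tristetraprolin, the protein of Zfp36, and its relatives from Zfp36l1 and Zfp36l2 bind AU-rich elements and recruit the same deadenylase until MK2 phosphorylates them. In T cells these factors hold down cytokine and costimulator mRNAs such as those of Il2, Icos, Tnfrsf4 and Tnf.

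The decay factors' own 3′ UTRs carry such signals. Each member's longest annotated 3′ UTR was searched on the transcript strand for the AU-rich heptamer TATTTAT and for a stem-loop of 5 perfectly paired bases around a 3-base pyrimidine-purine-pyrimidine loop. Zfp36, Zfp36l1 and Zfp36l2 each held 3 heptamers and no such stem-loop. At least 3 heptamers were present in 583 of all 14585 annotated 3′ UTRs (3.997%) and in 2.62% of the 7664 that were 500 to under 2500 bases long, the range in which these 3 UTRs fall (774, 1835 and 1822 bases). The first heptamer after the stop codon of each is printed with 10 bases on either side and the heptamer in capitals, because these are the letters that the proteins themselves are known to bind.
Zfp36, chr7:28376967-28376993, minus strand: gtgggcccttTATTTATgacgacttta
Zfp36l1, chr12:80108423-80108449, minus strand: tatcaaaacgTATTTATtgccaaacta
Zfp36l2, chr17:84184915-84184941, minus strand: ctatttaactTATTTATtatcttgtga
These and the following sequences are the GENCODE vM21 annotation's positions read from GRCm38, the build of the deposited counts, with T in place of U.

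The Roquin genes held both kinds of signal. Rc3h1 had 2 heptamers and 4 stem-loops in 7181 bases, of which a pair overlapped in a run of A and T only, and Rc3h2 had 3 heptamers and 2 stem-loops in 5331 bases. In UTRs of 5000 to under 8000 bases 68.9% held a heptamer and 64.5% a stem-loop, so their presence in UTRs of this length was common. Rc3h1 and Rc3h2 shared 2 identical stem-loops of 13 bases. One, ATATATATTATAT, consists of A and T alone and was found in the 3′ UTRs of 48 of 14585 genes. The other, ACTTCTGTGAAGT, was found in 6 of 14585 genes, the others being Adamts6, Kctd20, Mppe1 and Pxdn. Its 9 central bases, TTCTGTGAA, formed the core of a stem-loop in 55 of the 14585 genes (0.377%). The 55 included Tnf, Icos, Nfkbid and Ier3, of which Tnf, Icos and Nfkbid are well-known Roquin or Regnase targets, and 2 of the 7 decay factors. The core was picked out after the stem-loops of the Roquin genes had been seen. The stem-loop is in capitals, with 7 bases on either side, so that the Roquins' own element can be read against those of their targets.
Rc3h1, chr1:160971654-160971680, plus strand: gccaataACTTCTGTGAAGTtgccttt
Rc3h2, chr2:37373803-37373829, minus strand: ttaattaACTTCTGTGAAGTtgtttac
Tnf, chr17:35199579-35199605, minus strand: agacatgTTTTCTGTGAAAAcggagct
Icos, chr1:60999480-60999506, plus strand: gaacaaaATTTCTGTGAAATaaaatct
Nfkbid, chr7:30428396-30428422, plus strand: ctaggtgATTTCTGTGAAATcgagccc
Ier3, chr17:35822868-35822894, plus strand: gtatgtaTGTTCTGTGAACAcgaataa

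Zc3h12a held 3 stem-loops and no heptamer in 856 bases, where 15.3% of UTRs of 500 to under 1000 bases held a stem-loop. Zc3h12d held neither signal in 2327 bases. The first stem-loop of Zc3h12a is shown because Regnase-1 is known to act on its own mRNA.
Zc3h12a, chr4:125119063-125119089, minus strand: cctgttgATACACATTGTATctctgtc
A match to these letters is a description of the sequence, and binding was not measured. For comparison, a heptamer was present in 17 of 19 listed ZFP36 targets and a stem-loop in 12 of 16 listed Regnase and Roquin targets, against 29.1% and 23.3% of all 14585 3′ UTRs. A heptamer was also present in 8 of the 16 Regnase and Roquin targets, and a stem-loop in 8 of the 19 ZFP36 targets. These counts were not matched for UTR length. The target lists also share genes, among them Tnf, Il2, Il6 and Ifng, each of which held a heptamer.

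**Figure D1:**
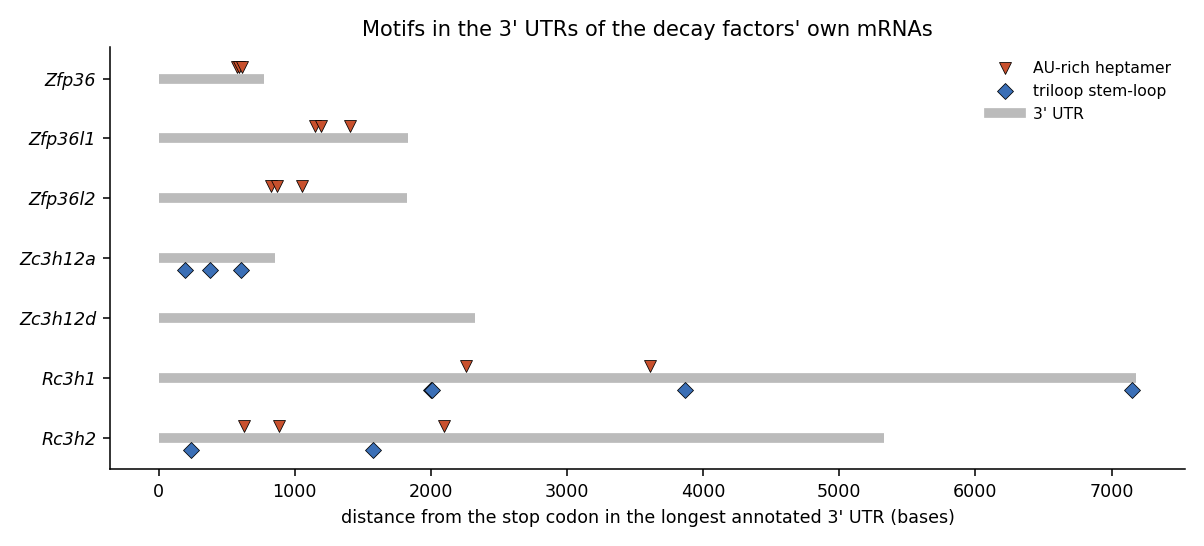
Positions of the AU-rich heptamer (red triangles) and the stem-loop with a 3-base loop (blue diamonds) in the longest annotated 3′ UTR of each decay factor, in bases from the stop codon. The 3 ZFP36 genes carry 3 heptamers each and no stem-loop, Zc3h12a carries 3 stem-loops only, both Roquin genes carry both, and Zc3h12d carries neither.

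Depth and labels were checked first. Total counts were 19032620 to 23159815 per library, which for the least abundant member, Rc3h2, left 669 to 827 counts. Levels are given in CPM, the counts-per-million scale after edgeR's TMM scaling, and the values of a group in the order of replicates 1, 2 and 3. Xrcc6, the targeted gene, had 20.9, 63.1 and 23.8 CPM in WT and 5.24, 3.51 and 4.18 CPM in cKO Tregs, so every library matched its label. WT replicate 2 stood apart from the other 5 libraries: it had 11513 genes with a count against 14442 to 14737, and its correlation with each of the others across genes (log2 CPM) was at most 0.930, against at least 0.983 between the rest. Values without it are therefore given beside the main results. Summed CPM of 7 Treg markers, among them Foxp3, Il2ra and Ctla4, was 4170 to 5536, and Foxp3 itself was at 150 to 282 CPM in all libraries. Across all genes, edgeR's quasi-likelihood test called 0 of 15315 at an adjusted p under 0.05 (0.0%), 277 (1.81%) had an unadjusted p under 0.05, and DESeq2 called 2 (0.0131%), Xrcc6 and Ifi208, which are named here after their values were seen. Without WT replicate 2, edgeR called 1 gene (0.00654%), Xrcc6.

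The ZFP36 family was by far the most abundant. Zfp36l2 ranked 43rd, Zfp36 64th and Zfp36l1 83rd by mean CPM among the 15315 genes, whereas Zc3h12a ranked 669th, Zc3h12d 2021st, Rc3h1 3612th and Rc3h2 4986th. To compare levels between genes, CPM was divided by the length of the longest coding transcript. Over the 6 libraries the mean was 686 CPM per kb for Zfp36, 672 for Zfp36l2, 506 for Zfp36l1, 89.9 for Zc3h12a, 23.04 for Zc3h12d, 4.79 for Rc3h1 and 3.95 for Rc3h2. These steps held in every library on the per-kb scale: Zfp36l1 was 4.398 to 7.25 times Zc3h12a, Zc3h12a was 2.75 to 4.92 times Zc3h12d, and Zc3h12d was 3.86 to 7.23 times Rc3h1. The order within the ZFP36 family was not fixed. Zfp36l1 led in WT replicate 1, Zfp36 in WT replicates 2 and 3, and Zfp36l2 in all 3 cKO libraries, and the ratio of Zfp36 to Zfp36l2 ran from 0.881 to 1.28. The leader depended on the length used. With counts not divided by length, Zfp36l2 also led in WT replicate 2, at 41.1% of the family against 36.0% for Zfp36. With the length of all annotated exons, used after the data were seen, these shares were 39.2 and 35.0%. Rc3h1 was above Rc3h2 in 5 of 6 libraries, at 0.938 to 1.43 times its level per kb.

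**Figure D2:**
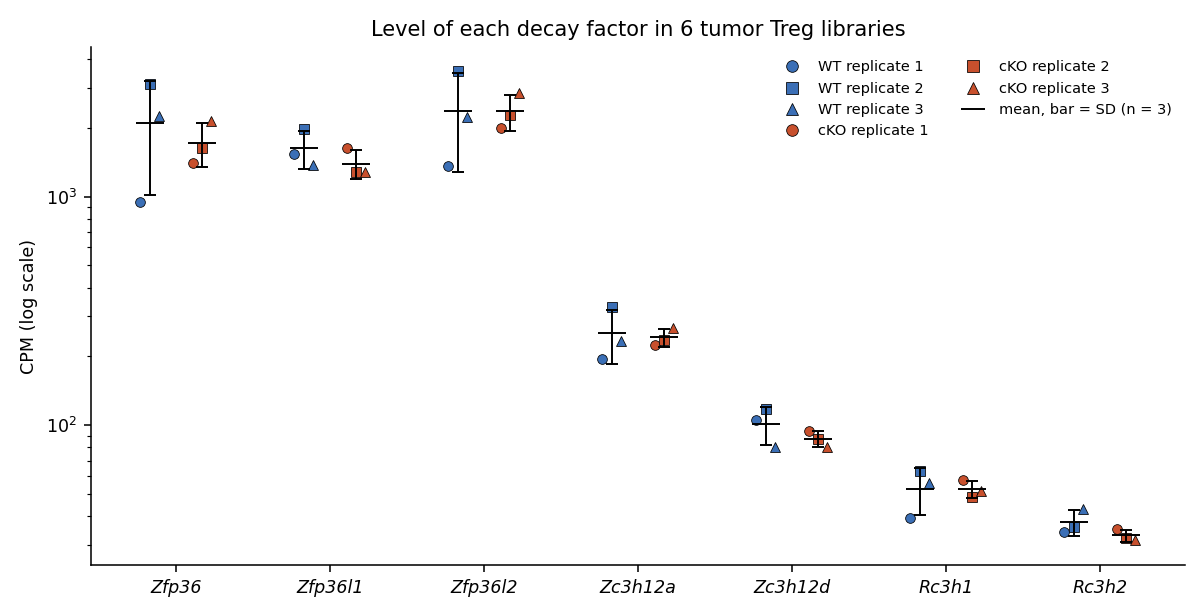
CPM of each decay factor (log axis) in the 3 WT libraries (blue) and the 3 cKO libraries (red), with the mean and SD of each group in black (n = 3). The 3 ZFP36 genes lie between 947 and 3548 CPM, Zc3h12a between 196 and 328, Zc3h12d between 80.4 and 118 and the Roquin genes between 31.5 and 62.9, and the groups overlap for each gene.

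The question of the comparison was whether Tregs that lost Ku70 carried other amounts of these mRNAs. No member was found to differ between cKO and WT Tregs. None of the 7 passed the adjusted threshold by edgeR, DESeq2 or limma's voomWithQualityWeights, none had an unadjusted p under 0.05 (1.81% of all genes did, 0.94% higher and 0.868% lower in cKO), and the WT and cKO values overlapped for all 7 (the groups did not overlap for 8.24% of all genes). Without WT replicate 2, 0 of 7 had an adjusted or unadjusted p under 0.05 and 0 of 7 had groups that did not overlap, where 3.01% of all genes had an unadjusted p under 0.05 (1.52% higher and 1.5% lower in cKO) and 16.0% had groups that did not overlap. The edgeR log2 fold change was below 0 for all 7 (45.5% of all genes), with a median of -0.19 against 0.04 over all genes. That direction rested on WT replicate 2: without it 3 of 7 were below 0 (51.4% of all genes) and the median was 0.10 against -0.01. A p that misses the threshold does not show equal levels, so the 95% interval of each difference is given. For 6 of the 7 it lay within a 2-fold change in either direction, the exception being Zfp36. When 1 library was left out this held for 4 to 6 of the 7, fewest without WT replicate 3 or without cKO replicate 1.

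Zfp36, whose protein tristetraprolin is the founding member of its family, lies on chr7:28376784-28380253 (minus strand). The WT libraries gave 947, 3111 and 2264 CPM and the cKO libraries 1403, 1626 and 2140 CPM. WT replicates 1 and 2 were the lowest and the highest of all 6 libraries, 3.29-fold apart, and the cKO libraries lay between them. The WT mean was 2107 ± 1091 and the cKO mean 1723 ± 378 CPM (SD, n = 3), a log2 fold change of -0.29 (SE 0.43, 95% interval -1.29 to 0.71, edgeR adjusted p = 0.984). Without WT replicate 2 the log2 fold change was 0.10 (-0.70 to 0.91, adjusted p = 0.9975).

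Zfp36l2, which helps to keep developing lymphocytes quiescent, lies on chr17:84183931-84187947 (minus strand). Its level was 1359, 3548 and 2236 CPM in the WT group against 2003, 2266 and 2830 CPM in the cKO group. The same WT libraries were the lowest and the highest, 2.61-fold apart, with a mean ± SD of 2381 ± 1102 CPM in WT and 2366 ± 422 CPM in cKO (n = 3 each). The log2 fold change was -0.01 (SE 0.37, 95% interval -0.87 to 0.85, edgeR adjusted p = 0.996). Without WT replicate 2 it was 0.40 (-0.22 to 1.01, adjusted p = 0.9975), and its interval then reached past a 2-fold rise.

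Zfp36l1, which acts beside Zfp36l2 in lymphocyte quiescence, lies on chr12:80107754-80113013 (minus strand). Counts reached 1540, 1982 and 1371 CPM in WT Tregs and 1625, 1281 and 1276 CPM in cKO Tregs. It varied less than its relatives, 1.55-fold between the lowest library, cKO replicate 3, and the highest, WT replicate 2. The log2 fold change was -0.23 (SE 0.23, 95% interval -0.77 to 0.32, edgeR adjusted p = 0.984), and -0.06 without WT replicate 2.

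Because the order of the 3 ZFP36 genes differed between libraries, the share of each in the family's summed CPM per kb was compared. Zfp36l2 made up 31.1, 36.1 and 33.3% of the family in the WT libraries and 35.2, 38.8 and 40.2% in the cKO libraries. The cKO mean was 4.57 percentage points higher, and WT replicate 2 overlapped the cKO range (exact permutation test, two-sided, p = 0.2, where 3 against 3 libraries cannot give less than 0.1). Without WT replicate 2 the Zfp36l2 difference was 5.885 points and the groups did not overlap (exact permutation p = 0.2, the smallest that 2 against 3 libraries allow). Zfp36 made up 27.4, 40.1 and 42.6% against 31.2, 35.3 and 38.4%, and Zfp36l1 41.6, 23.8 and 24.1% against 33.7, 25.9 and 21.4% (exact permutation p = 0.7 for each). WT replicate 1 had the largest Zfp36l1 share of the 6 libraries and the smallest Zfp36 and Zfp36l2 shares.

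**Figure D3:**
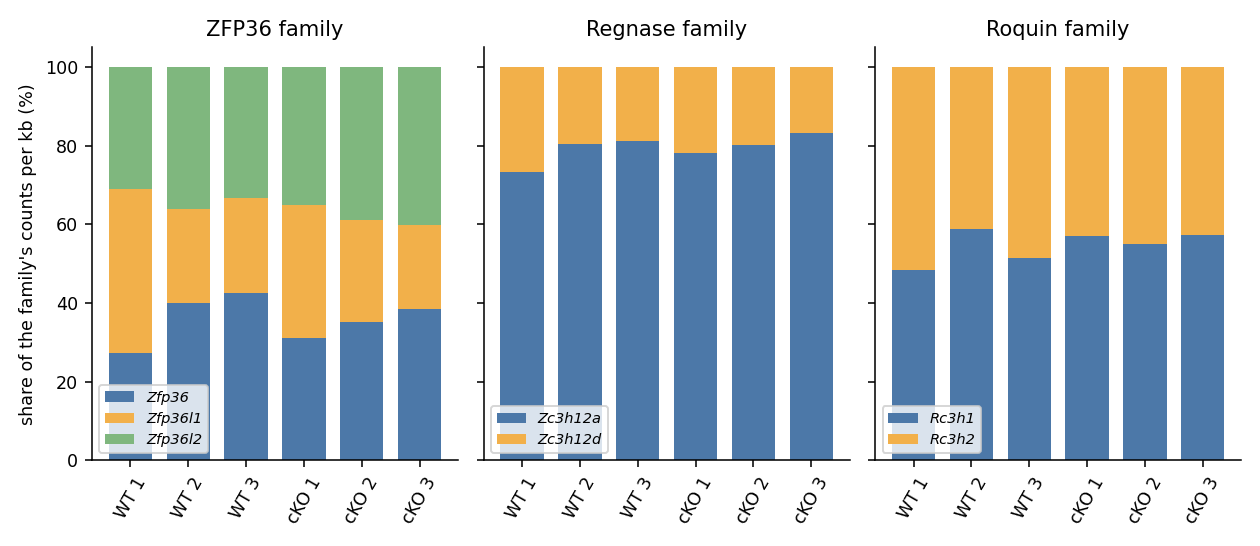
Share of each member in its family's summed CPM per kb, in percent, for each of the 6 libraries, with 1 panel per family. Zfp36l2 takes 31.1 to 36.1% of the ZFP36 family in WT and 35.2 to 40.2% in cKO libraries, Zc3h12a takes 73.3 to 83.1% of the Regnase pair, and Rc3h1 takes 48.4 to 58.8% of the Roquin pair.

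Zc3h12a, the gene of Regnase-1, lies on chr4:125118423-125127840 (minus strand). WT Tregs had 196, 328 and 235 CPM and cKO Tregs 226, 236 and 267 CPM. WT replicate 1 was again the lowest and WT replicate 2 the highest, 1.67-fold apart. The mean ± SD was 253 ± 67.8 CPM in WT and 243 ± 21.8 CPM in cKO (n = 3 each). The log2 fold change was -0.06 (SE 0.21, 95% interval -0.55 to 0.44, edgeR adjusted p = 0.984), and 0.17 without WT replicate 2. Zc3h12d, the gene of Regnase-4, a relative found mainly in lymphoid cells, lies on chr10:7832470-7870396 (plus strand). It had 106, 118 and 80.4 CPM in WT and 94.3, 86.7 and 80.7 CPM in cKO Tregs, so that all 3 cKO libraries fell inside the WT range. Its log2 fold change was -0.22 (SE 0.17, 95% interval -0.62 to 0.19, edgeR adjusted p = 0.984). Leaving out WT replicate 2 gave -0.10, and leaving out WT replicate 3 gave -0.35 (edgeR unadjusted p = 0.0566, adjusted p = 0.851). Zc3h12a made up 73.3 to 81.3% of the pair's CPM per kb in the WT and 78.03 to 83.1% in the cKO libraries (exact permutation p = 0.7).

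Rc3h1, the gene of Roquin-1, lies on chr1:160906418-160974978 (plus strand), with 39.4, 62.9 and 56.0 CPM in WT and 57.6, 48.4 and 51.8 CPM in cKO Tregs. The cKO values lay inside the WT range, and the log2 fold change was -0.00 (SE 0.20, 95% interval -0.47 to 0.46, edgeR adjusted p = 0.996). Rc3h2, the gene of Roquin-2, lies on chr2:37370069-37422903 (minus strand), with 34.1, 35.9 and 43.1 CPM in WT and 35.3, 32.1 and 31.5 CPM in cKO Tregs. It was the steadiest of the 7, with 1.37-fold between its lowest and highest library. Its log2 fold change was -0.19 (SE 0.17, 95% interval -0.58 to 0.20, edgeR adjusted p = 0.984) and -0.23 without WT replicate 2. Rc3h1 made up 48.4 to 58.8% of the Roquin pair's CPM per kb in the WT libraries and 55.1 to 57.2% in the cKO libraries (exact permutation p = 0.4). Without WT replicate 2 its WT shares were 48.4 and 51.4%, below every cKO library. The difference was then 6.53 percentage points (exact permutation p = 0.2, the smallest that 2 against 3 libraries allow). With the length of all annotated exons in place of the longest coding transcript, a change made after the data were seen, the mean Rc3h1 share moved from 52.9 to 70.4% in WT and from 56.4 to 73.4% in cKO libraries. With that length Rc3h1 was above Rc3h2 in WT replicate 1 as well, at 66.7% of the pair against 48.4%.

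**Figure D4:**
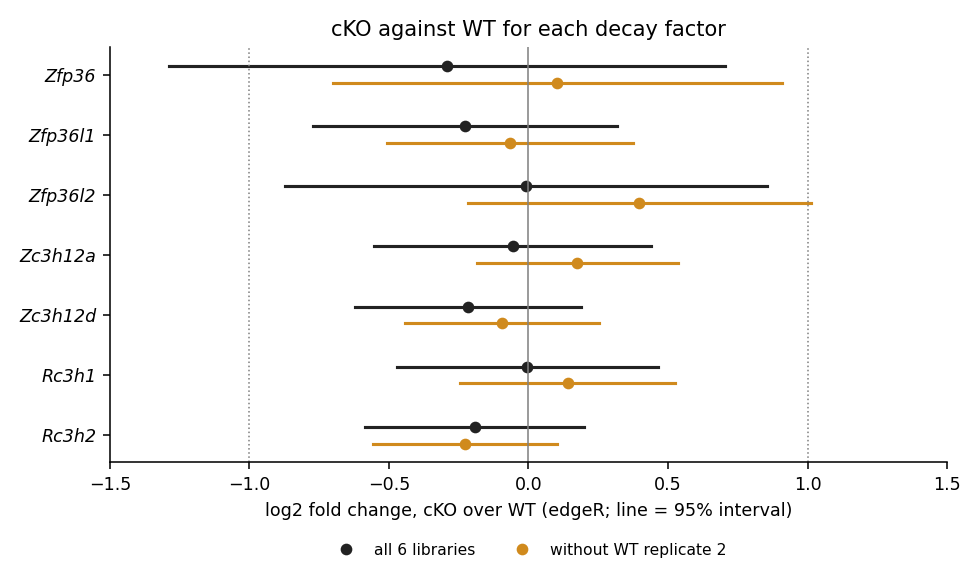
Change in each decay factor from WT to cKO Tregs by edgeR, on the log2 scale with the 95% interval, over all 6 libraries (black) and without WT replicate 2 (orange), with dotted lines at a 2-fold change. Every interval includes 0, and the points for Zfp36, Zfp36l2, Zc3h12a and Rc3h1 move to above 0 without that library.

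The members were also compared in pairs for how their levels varied over the libraries. Among the 21 pairs, Zc3h12a and Zfp36l2 followed each other most closely over the 6 libraries (log2(CPM + 0.5), Pearson's r = 0.97, Spearman's rho = 1.0, exact permutation p = 0.00278 for each, the smallest that 6 libraries allow, and 0.0583 after Benjamini-Hochberg adjustment over the 21 pairs). Their r was 0.992 without the 2 libraries farthest from the median of Zc3h12a and 0.990 without WT replicate 2. Zfp36 and Zfp36l2 had an r of 0.947 and a rho of 0.829 (exact permutation p = 0.0139 and 0.0583, adjusted 0.117 and 0.408), which fell to 0.659 without the 2 farthest libraries. Zc3h12d and Zfp36l1 had an r of 0.899 and a rho of 0.771 (exact permutation p = 0.0333 and 0.103, adjusted 0.175 and 0.540) and an r of 0.783 without the 2 farthest libraries. Zc3h12a and Zfp36 had an r of 0.915 and a rho of 0.829 (exact permutation p = 0.0167 and 0.0583, adjusted 0.117 and 0.408). Their r fell to 0.611 without the 2 farthest libraries. Other pairs depended strongly on WT replicate 2. Without it, Zc3h12d had an r of -0.992 with Zfp36 and -0.925 with Zfp36l2, against -0.025 and 0.033 over all 6 libraries. No pair passed the adjusted threshold.

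WT replicate 1 was the lowest library for Zfp36, Zfp36l2, Zc3h12a and Rc3h1, and WT replicate 2 the highest for all members but Rc3h2. Other lists moved between the same libraries. Summed CPM of 18 immediate-early and dissociation genes, which rise within minutes of stimulation or tissue digestion, was 13540, 22870 and 16910 in WT and 17100, 15320 and 16870 in cKO Tregs, lowest in WT replicate 1 and highest in WT replicate 2. Summed CPM of 7 macrophage markers was 175, 662 and 678 in the WT and 221, 514 and 986 in the cKO libraries. All 7 macrophage markers had counts, Lyz2 at 129 to 625 CPM and the other 6 at 0.382 to 111 CPM, and the groups overlapped. The 6 neutrophil markers summed to 9.99 to 20.5 CPM in the WT and 14.7 to 18.3 CPM in the cKO libraries, and Ly6g was at or under 3 counts in every library. Of these 6, 4 had a log2 fold change above 0 and 2 below 0. Retnlg and S100a9, both at low counts, were higher in every cKO library than in any WT library. The groups did not overlap, in either direction, for 8.24% of all genes. Retnlg was at 0 in all 3 WT libraries and at 0.882, 0.625 and 1.51 CPM in the cKO libraries (edgeR unadjusted p = 0.00237, adjusted p = 0.984), and S100a9 had 0.0956, 0 and 0.209 CPM against 1.11, 1.34 and 1.91 CPM (unadjusted p = 0.0122, adjusted p = 0.984), both named after their values were seen. The 5 red blood cell markers summed to 0.717, 0 and 9.75 CPM in the WT and 10.9, 36.1 and 17.8 CPM in the cKO libraries, and these sums did not overlap. No member had WT and cKO values that were separate in this way. B cell, CD8 T and NK, epithelial, and endothelial and stromal markers summed to 14.7 to 23.7, 6.16 to 21.1, 11.4 to 31.9 and 61.6 to 81.2 CPM in WT and to 12.02 to 48.3, 18.5 to 20.1, 19.2 to 27.5 and 70.3 to 95.6 CPM in cKO libraries, overlapping in each case. The summed CPM of the 7 Treg markers went the other way, highest in WT replicate 1 and lowest in WT replicate 2. Not each of these markers did so. Ctla4 was highest in WT replicate 2, at 1395 CPM, and Il2ra in cKO replicate 1, at 323 CPM. The part of stimulation during handling and of RNA from macrophages, neutrophils and red blood cells in the members' values was not tested, and in bulk RNA fewer cells of a type cannot be told apart from less RNA per cell.

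**Figure D5:**
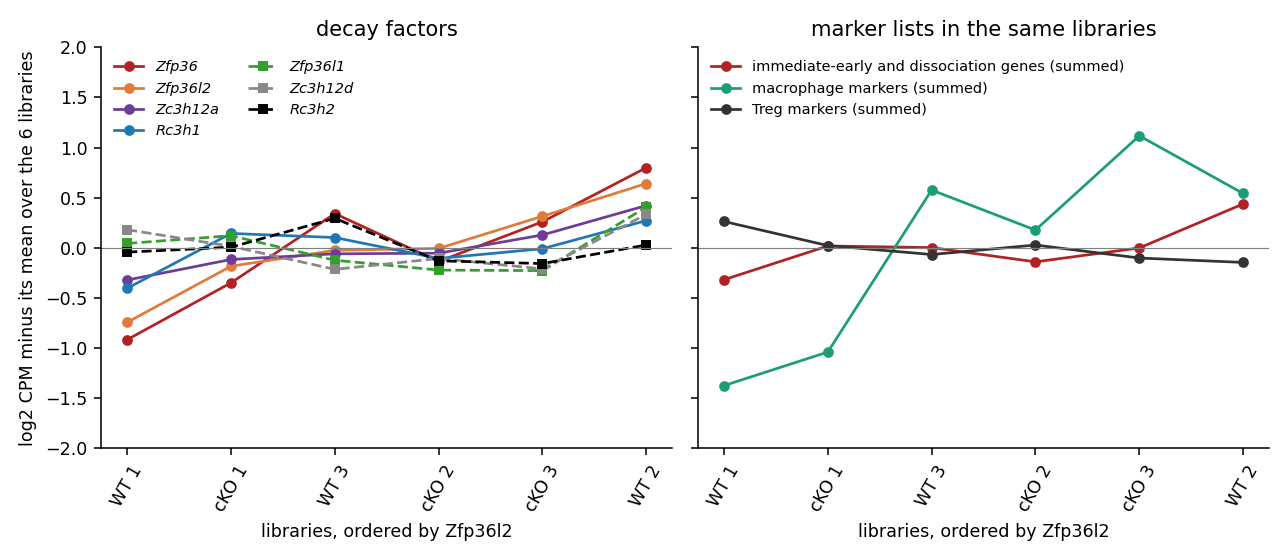
Left, log2 CPM of the 7 decay factors as the difference from each gene's mean over the 6 libraries. Right, the summed CPM of 3 marker lists on the same scale. Libraries are ordered by Zfp36l2: WT replicate 1 is lowest and WT replicate 2 highest for Zfp36, Zfp36l2, Zc3h12a, Rc3h1 and the immediate-early genes, the macrophage sum is lowest in WT replicate 1 and highest in cKO replicate 3, and the Treg marker sum is highest in WT replicate 1.

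For each member, the 1 gene most like it over the 6 libraries was sought among 8446 genes with a mean of at least 10 CPM. Zc3h12a was most like Pnrc1 (r = 0.989), Zc3h12d most like Nfkbie (0.987), Rc3h1 most like Usp53 (0.985) and Rc3h2 most like Slfn9 (0.988). Zfp36 was most like Tsc22d1 (0.994), Zfp36l1 most like Dlg4 (0.995) and Zfp36l2 most like Kpna4 (0.997). These are descriptions over 6 points that share the libraries' differences, and with so many genes searched a high value was bound to be found for each member. Pnrc1 ran from 843 CPM in WT replicate 1 to 1652 in WT replicate 2, and Tsc22d1 from 11.5 to 37.1 CPM between the same libraries, the same extremes as for Zc3h12a and Zfp36. Slfn9, like Rc3h2, was instead highest in WT replicate 3, at 33.8 CPM against 14.6 to 20.9 CPM in the other libraries.

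The machinery that these factors recruit was measured next. Of 18 deadenylase genes, the CCR4-NOT subunits with their BTG and TOB adaptors, PAN2-PAN3 and PARN, none was called and none had an unadjusted p under 0.05, and the median log2 fold change was -0.02 (0.04 without WT replicate 2). Btg1, an adaptor that keeps T cells quiescent, was at 2435, 4646 and 3337 CPM in the WT and 2661, 3337 and 3205 CPM in the cKO libraries (log2 fold change -0.18, SE 0.30). Btg2 was at 489, 1196 and 1005 CPM in the WT and 725, 879 and 1198 CPM in the cKO libraries (log2 fold change 0.06, SE 0.36), and Tob2 at 304 to 400 and 318 to 375 CPM. The lowest WT library for Btg1 and Btg2 was replicate 1 and the highest replicate 2, as for the ZFP36 genes Zfp36 and Zfp36l2. The 11 decapping and 5′-to-3′ decay genes (median 0.03, and 0.05 without WT replicate 2) and the 14 genes of the RNA exosome and its SKI partners (median -0.06, and 0.02) likewise held no gene with an unadjusted p under 0.05. Among them the RNA helicase Ddx6 was at 145 to 199 CPM in WT and 174 to 196 CPM in cKO libraries, the P-body protein Lsm14a at 194 to 205 and 199 to 208 CPM, the nonsense-mediated decay helicase Upf1 at 57.9 to 108 and 60.8 to 81.7 CPM, and the SKI helicase Skiv2l at 117 to 159 and 122 to 146 CPM. The exosome subunits Exosc8 and Exosc10 were at 58.6 to 83.1 and 42.1 to 67.8 CPM in WT and at 54.0 to 60.3 and 44.9 to 49.3 CPM in cKO libraries.

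The 10 relatives and partners analysed, other RNA-binding proteins that resemble the members or act on the same elements, had a median log2 fold change of -0.28, with 9 of 10 below 0 and none called (-0.12 and 8 of 10 without WT replicate 2). Zfp36l3 was not analysed here. N4bp1, a relative of the Regnases, was at 142 to 229 CPM in WT and 145 to 194 CPM in cKO libraries (log2 fold change -0.05, SE 0.21), and Elavl1, which stabilises AU-rich mRNAs, at 122 to 160 and 123.4 to 143 CPM (-0.07, SE 0.15). Arid5a, which protects stem-loop mRNAs from Regnase-1, was at 126, 248 and 174 CPM in WT and 172, 215 and 247 CPM in cKO libraries. Its log2 fold change was 0.21 (SE 0.26, edgeR adjusted p = 0.984) over all libraries and 0.50 without WT replicate 2 (unadjusted p = 0.0416, adjusted p = 0.9975), where 2 of the 3 cKO libraries lay above both remaining WT libraries. The 13 upstream regulators, which include the MALT1 complex and the kinases and 14-3-3 proteins that act on these factors, had a median of -0.00 and no gene with an unadjusted p under 0.05 (0.10, with 10 of 13 above 0, without WT replicate 2). Their most abundant genes were the 14-3-3 genes Ywhaz, at 632 to 789 CPM in WT and 608 to 700 in cKO libraries, and Ywhab, at 249 to 301 and 246 to 259, and the phosphatase gene Ppp2ca, at 282 to 322 and 293 to 349.

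Listed target mRNAs were compared last. Of 16 Regnase and Roquin targets none was called, none had an unadjusted p under 0.05, and 12 were below 0, with a median log2 fold change of -0.21 (13 of 16 and -0.15 without WT replicate 2). Of all genes 45.5% were below 0, and 51.4% without WT replicate 2. With 1 library left out the targets' median ran from -0.33 (without cKO replicate 1) to -0.09 (without cKO replicate 3). Tnfrsf4, the costimulator OX40, was at 3072, 1896 and 1678 CPM in the WT and 1879, 1920 and 1664 CPM in the cKO libraries (log2 fold change -0.28, SE 0.28). Ctla4, the inhibitory receptor of Tregs, was at 1263, 1395 and 1247 CPM against 1116, 1236 and 875 CPM, with all 3 cKO libraries below all 3 WT libraries, as groups did not overlap for 8.24% of all genes (log2 fold change -0.27, SE 0.21, edgeR unadjusted p = 0.225, adjusted p = 0.984). Icos, a costimulator, was at 943, 1150 and 880 CPM against 870, 1051 and 697 CPM (log2 fold change -0.18, SE 0.22). Of 19 ZFP36 targets none had an unadjusted p under 0.05, 7 were above and 12 below 0, and the median was -0.03 (0.03, with 11 above and 8 below 0, without WT replicate 2). Their most abundant were Dusp1, a phosphatase of MAP kinases, at 2997 to 3383 CPM in WT and 2968 to 3447 CPM in cKO libraries, Fos, at 449 to 1130 and 784 to 883, and Nfkbiz, which is also a Regnase target, at 599 to 815 and 657 to 694. Of the 18 immediate-early and dissociation genes, whose median was -0.06 (0.08 without WT replicate 2), Egr3 had an unadjusted p under 0.05. Egr3, a T cell receptor response gene, was at 8.84, 19.9 and 9.80 CPM in the WT and 7.47, 6.05 and 5.20 CPM in the cKO libraries, a log2 fold change of -1.04 (SE 0.42, edgeR unadjusted p = 0.0415, adjusted p = 0.984) and of -0.58 without WT replicate 2 (unadjusted p = 0.0306, adjusted p = 0.9975). The most abundant of that list were Junb, at 3296, 7389 and 4574 CPM in WT and 3774, 3847 and 4590 CPM in cKO libraries, Dusp1, given above, and the heat-shock gene Hspa1a, at 1820 to 2697 and 1609 to 3763 CPM.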

How the data were processed

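RNA was extracted with TRIzol from Tregs sorted from LLC-bearing lungs, made into libraries with a SMARTER mRNA-seq kit and sequenced as paired-end reads. Per gene symbol, the authors deposited expected counts estimated on GRCm38 and not normalized, and the submitters' processing notes name Bowtie2 (version 2.3.4.3) and RSEM (version 1.3.1). The gene annotation and strand setting are not given in the sources used here. In the deposited counts 21.6% of values were not whole, among them values of Zc3h12a and Rc3h1, as when RSEM divides reads between genes. Values were rounded to whole counts. Genes on the opposite strand overlap Zfp36 (Gm44710), Zfp36l1 (Gm26669), Zfp36l2 (AC132455.1) and Zc3h12d (Gm24726). Genes on the same strand overlap Rc3h1 (Gm37052, Gm37653 and Gm37809), Zc3h12d (Mir5104) and Rc3h2 (Snord90). Without a stated strand setting, reads from the opposite-strand genes cannot be told apart from the members' reads. For the same-strand genes a strand setting would not separate them.

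The 15315 genes with at least 1 count were tested with edgeR (version 4.0.16) in R (version 4.3.3), using TMM scaling, its quasi-likelihood test on the 6 libraries and Benjamini-Hochberg adjustment over all genes tested. An adjusted p under 0.05 was a call. Standard errors were obtained from each fold change and its F statistic. Total counts of 19032620 to 23159815 made 3 counts, the limit that a count of 0 allows, worth 0.133 to 0.156 CPM, for counting error only. Alternatives were DESeq2 (version 1.42.0), edgeR with median-of-ratios scaling, with no scaling beyond library size, with filterByExpr (12344 genes), with a robust dispersion or with the replicate number as a block, voomWithQualityWeights of limma (version 3.58.1), and each library left out in turn. The scripts were tested on simulated data. Replicates of a group differed beyond sampling noise, so none was merged. Exact permutation tests (SciPy version 1.17.1) were two-sided. Of the symbols, 14786 were found in GENCODE vM21, which gave positions, transcript lengths and 3′ UTRs.

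The members and gene lists were chosen with earlier results of these data known. Named are all members, the 3 most abundant genes of each list that is not a marker list and up to 5 with the smallest unadjusted p under 0.05, and for each member the 1 gene most like it. Protein sequences and promoters were not used here.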

Additional observations from a re-analysis of the deposited data

How the results depend on the processing

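None of the 7 members was called, or had an unadjusted p under 0.05, under any of the alternatives or with any 1 library left out, and Zc3h12d, Rc3h2 and Zfp36l1 stayed below 0 in all of them. The number of members with a log2 fold change below 0 was 7 over all libraries, 3 with voomWithQualityWeights and 3 to 7 when 1 library was left out, 3 of them without WT replicate 2. Log2 fold changes that turned to above 0 with voomWithQualityWeights were 0.15 for Zc3h12a, 0.060 for Rc3h1, 0.079 for Zfp36 and 0.35 for Zfp36l2. Rc3h1, at -0.00 over all libraries, was at 0.0022 with DESeq2 and 0.0021 with median-of-ratios scaling. When 1 library was left out, log2 fold changes ran from -0.21 to 0.17 for Zc3h12a, from -0.18 to 0.14 for Rc3h1, from -0.64 to 0.10 for Zfp36 and from -0.29 to 0.40 for Zfp36l2, and the members' median from -0.26 to 0.10, each highest without WT replicate 2 and lowest without WT replicate 1. Over the same fits Zc3h12d was lowest without WT replicate 3, at -0.35, and highest without WT replicate 2, at -0.10, Rc3h2 ran from -0.26 to -0.081 (without WT replicate 3) and Zfp36l1 from -0.35 (without cKO replicate 1) to -0.065 (without WT replicate 2). Genes called over the whole table numbered 2 with DESeq2 and 0 to 1 by edgeR when 1 library was left out (1 without WT replicate 2), and DESeq2 without WT replicate 2 called 3 (Xrcc6, Ifi208 and Gm38690). Genes at an unadjusted p under 0.05 numbered 277 over all libraries, 140 with filterByExpr, 543 with voomWithQualityWeights and 65 to 874 when 1 library was left out (874 without WT replicate 1, 461 without WT replicate 2, 575 without WT replicate 3, 184, 72 and 65 without cKO replicates 1, 2 and 3). The causes were not tested.

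No pairing by replicate number was seen: deviations of same-numbered libraries correlated at -0.01, -0.21 and 0.20, and not every library correlated best with its own number. With 3 libraries per group these values cannot exclude a pairing. With the replicate number as a block, 85 genes had an unadjusted p under 0.05, no member did, Rc3h1 was at 0.018 and Zfp36l2 at 0.088. The differences in family share, in percentage points of cKO minus WT, ran over the libraries left out from -6.41 to 1.23 for Zfp36 (1.23 without WT replicate 3), from -6.17 to 3.05 for Zfp36l1 (3.05 without WT replicate 1) and from -0.46 to 3.51 for Zc3h12a (-0.46 without WT replicate 1).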

Other observations

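The AU-rich heptamer was also looked for in the 3′ UTRs of all genes. The 4248 genes that held TATTTAT had a median log2 fold change of 0.00 between cKO and WT Tregs, with 28 higher and 39 lower at an unadjusted p under 0.05 and none called. The 10334 tested genes with a 3′ UTR and no heptamer had a median of 0.06, with 111 higher and 80 lower. Without WT replicate 2 the medians were -0.01 and -0.00. The heptamer was more common in longer 3′ UTRs, at 19.3% of those of 500 to under 1000 bases and 68.9% of those of 5000 to under 8000 bases, so the 2 sets also differ in length. The 4 Y-linked genes measured had counts in all 6 libraries, and Xist was not analysed here.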
